A study of Mus musculus with 6 samples.

Results

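DNA replication and S phase genes were described in macrophages sorted from mammary glands of tumour-bearing mice at 8 and at 11 weeks of age. The 39 genes are members of the replication machinery, its nucleotide supply and its G1/S control, taken by their textbook role and matched to the deposited table by symbol. All 39 were found once each among the 43432 genes listed, all are annotated as protein-coding, and all 39 passed the filter on low values. Every group came from female FVB/N mice carrying MMTV-PyMT, a transgene in which the promoter of mouse mammary tumour virus expresses the middle T oncogene of polyomavirus in mammary epithelium, where tumours then form, so no group was free of the transgene. The study calls the ages early and late tumours, with 3 libraries at 8 weeks and 3 at 11 weeks. The cells were digested out of whole glands and sorted as live, CD45+, MHC class II+ and CD14+, a gate that enriches macrophages and does not by itself keep out every other leukocyte. The labels number the samples an1 to an3 at each age, without spelling this out or saying whether each came from its own animals. The spread that the p-values are set against may therefore be technical in part.

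A cell that is about to copy its genome first licenses its origins: the origin recognition complex, Cdc6 and Cdt1 load the Mcm2 to Mcm7 ring onto DNA. In S phase the ring becomes an active helicase with Cdc45 and the GINS complex, primase and polymerase alpha start the strands, and the Pcna clamp tethers the polymerases that extend them. Many of these genes are switched on at the G1/S border by E2F transcription factors. Tissue macrophages can renew themselves by division, whereas monocytes entering a tumour arrive mostly as cells that are not dividing, and transcripts of this kind are widely read as a sign of cycling.

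E2F factors bind upstream of many of these genes, so the promoter stretches of the members were searched first. Of the 39 genes, 31 had an entry in the RefSeq promoter table (GRCm38.p6). The 250 bases before each RefSeq start were searched on both strands for the E2F words TTTCCCGC, TTTCGCGC, TTTGCCGC and TTTGGCGC, and for CCAAT, the word bound by NF-Y, which does not overlap with them. An E2F word was found in 8 of 31 members (25.8%) and in 2.16% of the 27025 genes with an entry, and CCAAT in 20 of 31 (64.5%) against 37.5%. The E2F words were in Orc1, Mcm5, Mcm6, Mcm7, Gins3, Cdc6, Rfc3 and Pola1. The RefSeq start was matched to the start of a GENCODE transcript for 23 of the 31 members. For the entries of Mcm5, Mcm6 and Mcm7 that hold an E2F word it was not matched. The 3 sequences printed here are those of Pola1 and Rrm1, both lower at 11 weeks in every library, and of Tyms, higher in every library. They run 5′ to 3′ on the gene's strand and end at the base before the RefSeq start, with E2F words and CCAAT in either orientation in capitals. Pola1 lies on the minus strand (chrX:93632156-93632405), Rrm1 on the plus strand (chr7:102441445-102441694) and Tyms on the minus strand (chr5:30073626-30073875).
Pola1: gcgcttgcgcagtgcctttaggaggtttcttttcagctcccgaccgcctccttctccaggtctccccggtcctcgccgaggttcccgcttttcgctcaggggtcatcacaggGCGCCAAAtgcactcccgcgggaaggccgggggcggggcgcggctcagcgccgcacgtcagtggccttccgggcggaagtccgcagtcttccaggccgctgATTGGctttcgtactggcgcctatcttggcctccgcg
Rrm1: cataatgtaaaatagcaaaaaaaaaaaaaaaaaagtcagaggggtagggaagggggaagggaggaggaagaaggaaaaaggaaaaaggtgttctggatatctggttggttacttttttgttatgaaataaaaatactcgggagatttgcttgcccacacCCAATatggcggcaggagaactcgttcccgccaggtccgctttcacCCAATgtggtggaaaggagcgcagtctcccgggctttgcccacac
Tyms: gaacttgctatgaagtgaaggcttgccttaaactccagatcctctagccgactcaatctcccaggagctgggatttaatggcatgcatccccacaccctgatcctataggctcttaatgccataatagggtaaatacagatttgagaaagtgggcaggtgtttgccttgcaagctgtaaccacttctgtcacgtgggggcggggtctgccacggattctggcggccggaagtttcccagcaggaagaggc
Pola1 holds 1 E2F word and 1 CCAAT, Rrm1 holds 2 CCAAT and no E2F word, and Tyms holds neither. A match describes these letters only, and its absence says nothing about which factors act there.

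The 11-week values of the replication genes stood to the 8-week values in different ways. Whether the genes differ from one another in their change was not tested. Orc1, Mcm2, Mcm5, Mcm6 and Cdc45 lay below all 8-week values in every 11-week library, and so did Pola1, Rrm1 and the barely detected Fen1. Other genes that load or form the replicative helicase overlapped between the ages: Orc6, Cdc6, Cdt1, Mcm3, Mcm4, Mcm7 and the GINS genes. The 11-week means of the clamp Pcna, of Mcm3 and of Rrm2 were 99.1%, 102.7% and 101.3% of their 8-week means, and Rfc3 and Tyms lay above all 8-week values. None of the 39 passed the test over all genes (limma on log2(normalized count + 1), Benjamini-Hochberg adjusted p under 0.05), where 0.0507% of the 21675 genes tested passed. At an unadjusted p under 0.05, 3 members were lower (Orc1, Pola1 and Rrm1) and 1 was higher (Tyms), against 3.27% and 4.76% of all genes. The edgeR quasi-likelihood test on recovered reads also called none of the members (0.0646% of all genes). DESeq2 on the same reads called 1, Pola1 (adjusted p = 0.0358), where 2.63% of genes with an adjusted p were called and 0.964% were called lower. Fen1 had no adjusted p there. On data simulated from these libraries a larger share of DESeq2's calls than of limma's or edgeR's was false. For each of these tools the false share was above the threshold of 0.05. In the same data each of these tools missed most of the genes made to differ, limma the most and DESeq2 the fewest. Genes made to differ more strongly were found more often. A member that was not called may therefore still differ between the ages. In GRCm38 the 4 members with the smallest p are Orc1 (ENSMUSG00000028587) at chr4:108579423-108614833, Pola1 (ENSMUSG00000006678) at chrX:93304767-93632155, Rrm1 (ENSMUSG00000030978) at chr7:102441695-102469771 and Tyms (ENSMUSG00000025747) at chr5:30058202-30073617. The authors' deposited table likewise gives 1 member an adjusted p under 0.05, Pola1 at 0.042 with a log2 fold change of -0.887, where 0.78% of its genes with an adjusted p passed that threshold as lower and 1.13% as higher.

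**Figure D1:**
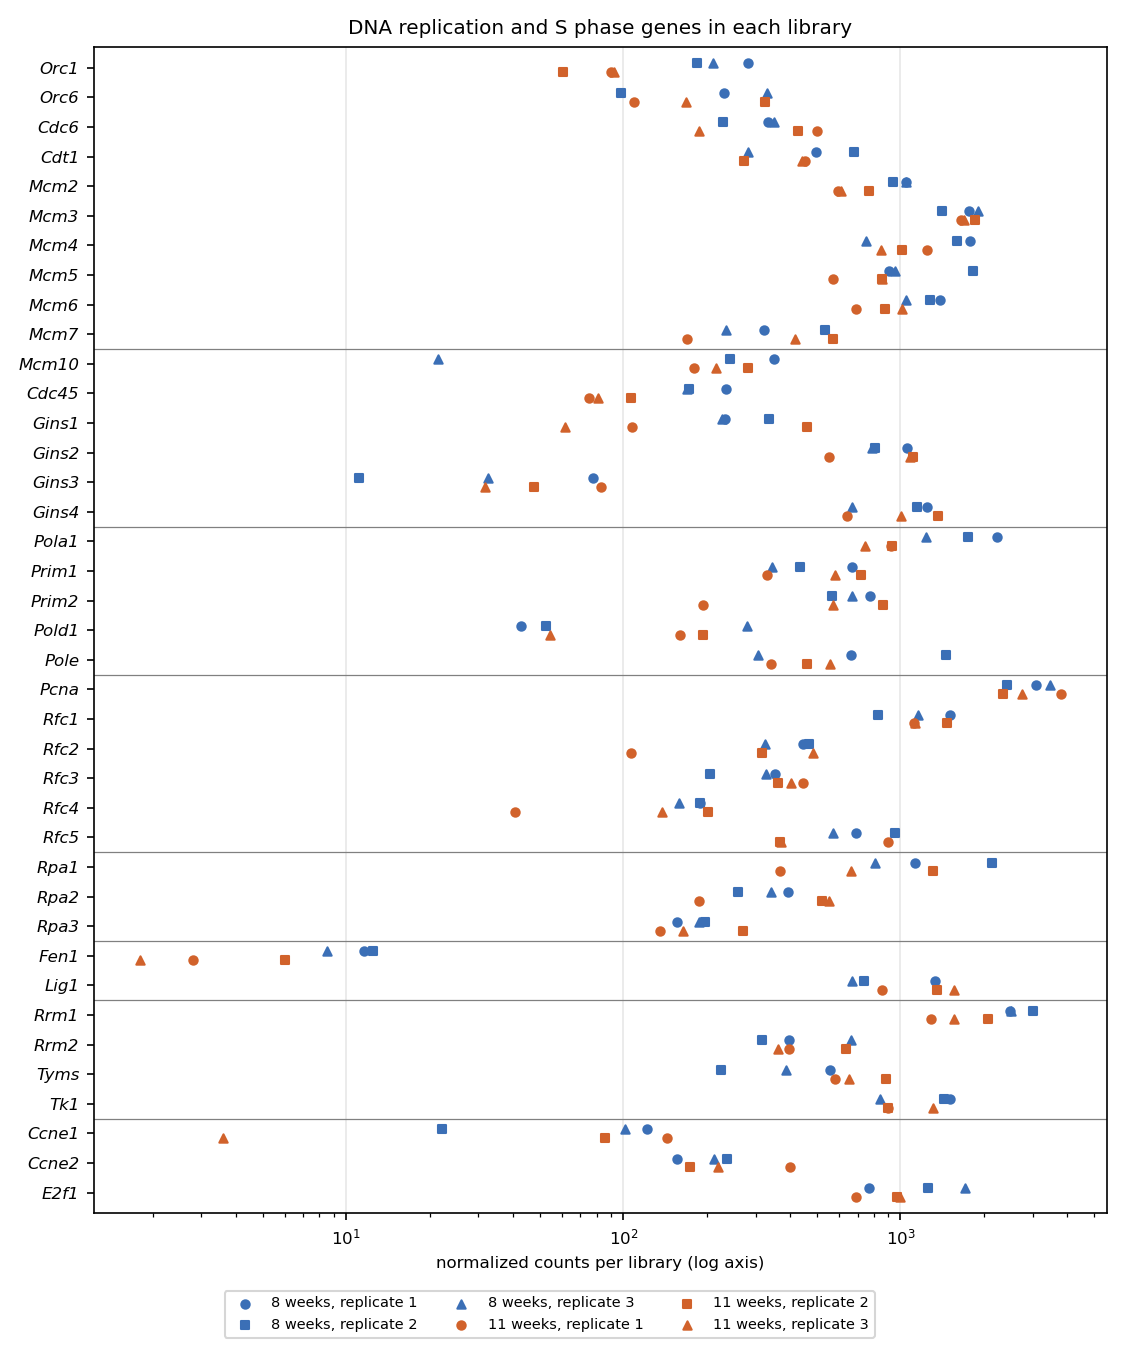
Normalized counts (log axis) of each of the 39 genes in the 6 libraries, with 8 weeks in blue and 11 weeks in orange, a marker shape per replicate, and grey lines between roles. The blue points of Orc1, Cdc45, Pola1 and Rrm1 all lie to the right of the orange ones, while those of Pcna and Mcm3 are mixed.

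The level of a gene is given here as a normalized count, the number of reads divided by 1 size factor per library, and a fold change is the difference of mean log2(normalized count + 1), 11 minus 8 weeks, with its SE. Of the 39 genes 25 (64.1%) had a negative fold change, against 47.2% of all genes tested, and their median was -0.261 against 0.052 for all genes. All genes tested include many with low values. Among the 11338 genes with a mean of at least 100 in either age the median was -0.016. It was -0.185 for the 36 members among them, 23 of which were lower. In 8 members (20.5%) all 11-week values lay below all 8-week values, against 5.12% of all genes. In 2 members (Rfc3 and Tyms) they lay above, against 6.81%. The 39 genes share their libraries and are not independent of one another. The median log2 fold change was -0.073 without 11-week replicate 1, -0.10 without 8-week replicate 1, -0.164 without 11-week replicate 3 and -0.171 without 8-week replicate 2, and it was -0.134 by DESeq2 and -0.138 by edgeR. In bulk RNA, fewer cycling cells and less of these transcripts per cell cannot be told apart.

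**Figure D2:**
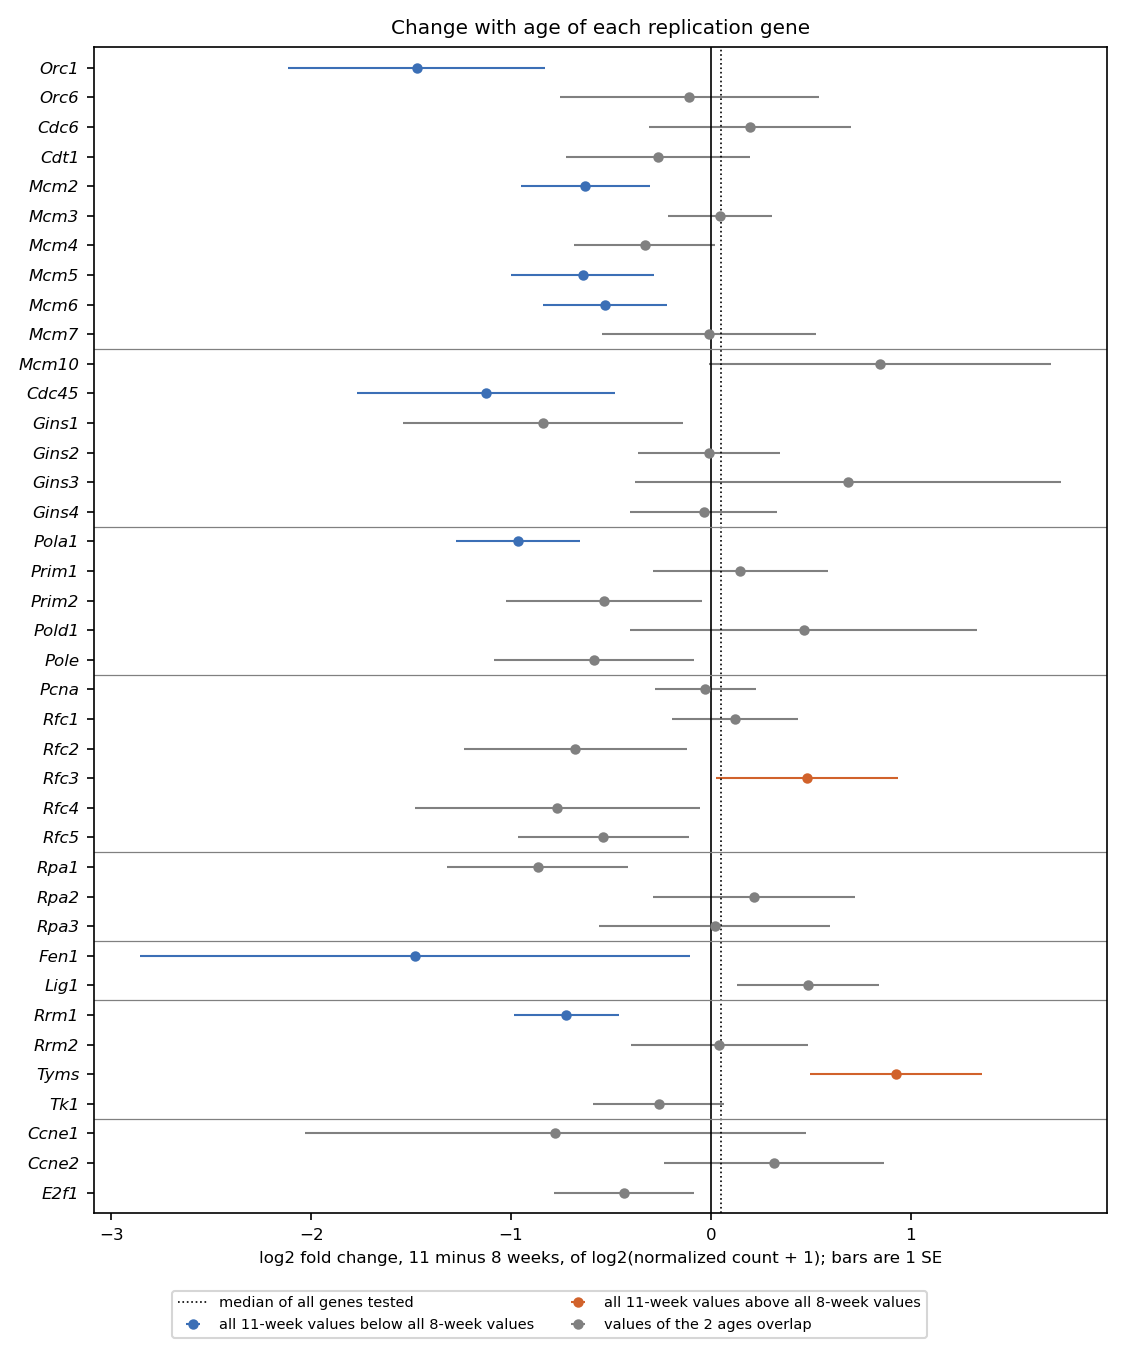
Log2 fold change (11 minus 8 weeks) of each gene with its SE, coloured by whether the values of the ages overlap, with a dotted line at the median of all genes tested (0.052). Of the 39 points 25 lie left of 0, and the 8 blue ones are the genes with no overlap below the 8-week values.

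Of the origin licensing genes 8 of 10 had a negative fold change, 4 of them (Orc1, Mcm2, Mcm5 and Mcm6) without overlap, with a median log2 fold change of -0.297, where 47.2% of all genes tested were negative and 5.12% lower without overlap. Orc1, the largest subunit of the origin recognition complex, was at 282.6, 184.3 and 211 normalized counts in 8-week replicates 1 to 3 and at 90.1, 60.5 and 92.4 in the 11-week replicates. Every 11-week value was under the lowest 8-week value, and the 11-week mean was 35.8% of the 8-week mean. Its log2 fold change was -1.47 ± 0.64 (SE; limma adjusted p = 0.599, unadjusted p = 0.0364), and the authors' deposited table gives it an adjusted p of 0.064. On the opposite strand the gene Gm12743 covers 10.8% of its exon bases. Orc6, a small subunit of the same complex, was at 230, 98.4 and 330.5 and at 109.4, 323.6 and 168.6, values that overlap fully.

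Cdc6, the ATPase that helps to load the ring, was at 304 ± 65.4 normalized counts in the 8-week libraries and 372 ± 163 in the 11-week libraries (n = 3 per age, SD). Cdt1, the other loading factor, was at 484 ± 198 and 389 ± 100 (SD, n = 3). Neither differed beyond the spread of its libraries, with limma adjusted p of 0.927 and 0.889.

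The 6 subunits of the Mcm ring work as a single complex, and the transcripts of 3 of them lay below the 8-week values without overlap. Whether the subunits differ from one another in their change was not tested. Mcm2 was at 1047.7, 940.7 and 1049.7 normalized counts at 8 weeks and at 594, 770.2 and 610.9 at 11 weeks. All 11-week values lay under the 8-week ones, which were close together, with a difference of -0.63 ± 0.32 on the log2 scale (SE; limma adjusted p = 0.658). Mcm6 was at 1389.2, 1277.3 and 1046.3 and at 688.7, 878 and 1016.9, where the highest 11-week value came close to the lowest 8-week value (log2 fold change -0.53 with an SE of 0.31; limma adjusted p = 0.717). Mcm5 was at 908.6, 1834.2 and 959.2 and at 569.2, 859.9 and 859.2, with 8-week replicate 2 far above the other libraries. Without that replicate its log2 fold change of -0.64 became -0.317.

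Mcm3 values of the ages overlapped: it was at 1763.7, 1408.9 and 1903.8 normalized counts at 8 weeks and at 1653.2, 1859.9 and 1697.6 at 11 weeks (log2 fold change 0.05 with an SE of 0.26; limma adjusted p = 0.969). Mcm4 was at 1775.2, 1602.9 and 753.3 and at 1245, 1015.1 and 852.9, so that 8-week replicate 3 lay under all 11-week libraries. Mcm7 was at 322.8, 536.1 and 234.9 and at 169.2, 568.6 and 415.1, a spread that covers both ages. Per kilobase of annotated exon, the mean level over all libraries was highest for Mcm3 (457 normalized counts per kilobase), then Mcm4 (336), Mcm5 (250), Mcm6 (225), Mcm2 (120) and Mcm7 (84.6). Exon lengths are the union of all annotated transcripts, so these levels are approximate.

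Among the helicase activators only Cdc45, which joins the Mcm ring to make it an active helicase, was separated by age. Cdc45 was at 235.4, 173.2 and 169.1 normalized counts at 8 weeks and at 75.4, 106.9 and 80.7 at 11 weeks. The 11-week mean was 45.5% of the 8-week mean, with a difference of -1.13 ± 0.65 on the log2 scale (SE; limma adjusted p = 0.707). The GINS subunits, the other partners of the ring, gave no common direction. Gins1 was at 232.7, 335.3 and 227.2 and at 107.6, 458.7 and 61.6, so that 11-week replicate 2 was the highest and the other 11-week libraries the lowest of all 6. Gins2 and Gins4 were at 884 ± 147 and 1018 ± 308 normalized counts in the 8-week libraries against 914 ± 313 and 1004 ± 362 in the 11-week libraries (SD, n = 3), and Gins2 had a negative log2 fold change of -0.009 by limma and a positive one of 0.036 by edgeR.

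Gins3 was low, at 77.6, 11.1 and 32.5 normalized counts at 8 weeks and at 82.8, 47.4 and 31.7 at 11 weeks, with only 8 reads in its lowest library. Mcm10, a factor that helps to start the helicase, was at 349.5, 242.4 and 21.4 and at 180.2, 282.3 and 215.7. The single low value of 8-week replicate 3, 25 reads, set its positive log2 fold change of 0.85, which was -0.388 without that library.

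Polymerase alpha with primase lays the first stretch of each new strand. Pola1, the catalytic subunit of polymerase alpha, was at 2229.1, 1751.1 and 1232.5 normalized counts at 8 weeks and at 924.1, 935.5 and 745 at 11 weeks. All 3 later values lay under the lowest earlier one, and the 11-week mean was 50% of the 8-week mean. Its log2 fold change was -0.97 ± 0.31 (SE; limma adjusted p = 0.395, unadjusted p = 0.00668), the smallest p of the 39 genes, and it stayed between -1.19 and -0.766 when each library was left out. The values of the primase subunits, which work in the same complex, overlapped between the ages. Prim1 was at 668.7, 435 and 344.2 and at 329.2, 717.8 and 578.3. Prim2 was at 774.8, 566.6 and 669.6 and at 194, 867 and 571, with 11-week replicate 1 alone far below the others. The log2 fold change of Prim2 was -0.536 with that library and 0.082 without it.

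The polymerases that extend the strands varied widely between libraries of one age. Pole, the catalytic subunit of polymerase epsilon on the leading strand, was at 663.4, 1461.6 and 304.9 normalized counts at 8 weeks and at 341.1, 461.7 and 556.5 at 11 weeks. Pold1, that of polymerase delta on the lagging strand, was at 42.8, 52.6 and 280.1 and at 160, 193.6 and 54.4. In both genes the highest and the lowest 8-week library enclosed all 11-week values.

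Pcna, the sliding clamp, had the highest level of all 39 genes per length, 1241 normalized counts per kilobase of exon. It was at 3078.8, 2421.6 and 3471.9 normalized counts at 8 weeks and at 3795.6, 2346.8 and 2749 at 11 weeks. The 11-week mean was 99.1% of the 8-week mean, with a difference of -0.03 ± 0.25 on the log2 scale (SE; limma adjusted p = 0.983). Of the clamp loader genes, Rfc3 was at 353.1, 205 and 326.3 and at 443.2, 361.9 and 401.5, above the 8-week range in all 3 later libraries (log2 fold change 0.48 with an SE of 0.45; limma adjusted p = 0.818). Without 8-week replicate 2 the fold change of Rfc3 was 0.239. The values of its partners overlapped between the ages. Rfc1, the large subunit, was at 1163 ± 339 and 1239 ± 202 normalized counts (SD, n = 3). Rfc2 and Rfc4, which are small subunits, were at 106.7 and 40.5 in 11-week replicate 1, the lowest of their 6 libraries, and between 137.8 and 484 in all others. Rfc5 was at 691, 954.5 and 569.7 and at 902.9, 366.9 and 370.7, with 11-week replicate 1 here the high one of its age.

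Replication protein A, the trimer that coats single-stranded DNA, was mixed. Rpa1, its largest subunit, was at 1127.9, 2133.5 and 806.3 normalized counts at 8 weeks and at 367.8, 1305.5 and 665.3 at 11 weeks (log2 fold change -0.87 with an SE of 0.45; limma adjusted p = 0.667). That value was -0.42 without 11-week replicate 1, -0.479 without 8-week replicate 2 and -1.33 without 11-week replicate 2. Replicate 2 was the highest library at each age and the ages overlapped. Rpa2 and Rpa3 were at 330 ± 66.7 and 180 ± 21.3 in the 8-week libraries against 421 ± 202 and 190 ± 70.5 in the 11-week ones (SD, n = 3).

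Lig1, the ligase that joins Okazaki fragments, was at 1331.2, 741.2 and 669.6 normalized counts at 8 weeks and at 859.7, 1350.8 and 1560.7 at 11 weeks, with overlap (log2 fold change 0.49 with an SE of 0.36; limma adjusted p = 0.789). It was 0.295 and 0.79 without 8-week replicates 3 and 1, and 0.307 and 0.737 without 11-week replicates 3 and 1. Fen1, the nuclease that trims the flaps of these fragments, was almost absent from the table. It was listed at 11.6, 12.5 and 8.5 normalized counts at 8 weeks and at 2.8, 6 and 1.8 at 11 weeks, the last made of 2 reads, and 2.97 normalized counts per kilobase was the lowest level of the 39 genes. In the GENCODE annotation of GRCm38, 78.8% of the exon bases of Fen1 are shared with the gene Gm10143 on the opposite strand, itself listed between 0 and 22.2 normalized counts. No source used here states whether counting used strand, and the part of this overlap in the low value was not tested. Gins2 shares 67.3% of its exon bases with Gse1 on the opposite strand and was at 914 ± 313 normalized counts at 11 weeks (SD, n = 3). The part of that overlap in the Gins2 value was not tested either.

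In nucleotide supply, ribonucleotide reductase makes deoxyribonucleotides and needs both of its subunits. Rrm1, the large subunit, which is made through much of the cell cycle, was at 2475.2, 3013.2 and 2515.3 normalized counts at 8 weeks and at 1291, 2077.7 and 1554.4 at 11 weeks. No 11-week value reached the 8-week range, and the log2 fold change was -0.72 ± 0.26 (SE; limma adjusted p = 0.479, unadjusted p = 0.0144). Rrm2, the small subunit whose level is tied to S phase, was at 395, 317.3 and 663.6 and at 395.4, 638.1 and 360.7, with overlap and a mean of 459 ± 182 and 465 ± 151 (SD, n = 3).

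Tyms, which makes thymidylate from deoxyuridylate, was higher in every 11-week library. It was at 558.2, 225.8 and 385.2 normalized counts at 8 weeks and at 582, 885.1 and 650.8 at 11 weeks. All later values lay above the earlier ones, although 11-week replicate 1 exceeded 8-week replicate 1 by little, with a difference of 0.93 ± 0.43 on the log2 scale (SE; limma adjusted p = 0.616, unadjusted p = 0.047). Without 8-week replicate 2 it was 0.582. Tk1, the thymidine salvage kinase, was at 1511.3, 1435.3 and 844.7 and at 900.2, 898.2 and 1316, with overlap (log2 fold change -0.26 with an SE of 0.33; limma adjusted p = 0.839). Leaving out any 1 of the 6 libraries moved that value, between -0.528 without 8-week replicate 3 and -0.109 without 8-week replicate 1.

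The regulators of S phase entry did not separate by age. E2f1, an E2F factor that activates many of these genes, was at 769.5, 1262.1 and 1710.8 normalized counts at 8 weeks and at 688.7, 974.8 and 998.8 at 11 weeks (log2 fold change -0.44 with an SE of 0.35; limma adjusted p = 0.802). That value was -0.171 without 8-week replicate 3, -0.263 without 11-week replicate 1 and -0.747 without 8-week replicate 1. Ccne1, which encodes cyclin E1, was at 121.3, 22.2 and 101.6 and at 143.4, 85.7 and 3.6. The last value rests on 4 reads, and without that library the log2 fold change of -0.779 turned to 0.756. Ccne2, which encodes cyclin E2, was at 156, 236.9 and 212.7 and at 398.1, 173.4 and 220.2, and 17.4% of its exon bases are shared with Ints8 on the opposite strand.

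The 11-week libraries were not equally low. In 11-week replicate 1, 20 of the 39 genes (51.3%) lay below the 8-week range, against 19.2% of all genes tested, and 16 had their lowest value of all 6 libraries there. In replicate 3, 14 (35.9%) lay below, against 20.2% of all genes, and in replicate 2, 12 (30.8%) lay below, against 19.6%. Above the 8-week range lay 7 of the 39 in replicate 1 (17.9%, against 27% of all genes), 13 in replicate 2 (33.3%, against 26.2%) and 6 in replicate 3 (15.4%, against 29.9%). Expressed as the median of each gene's log2 deviation from its own mean over the 6 libraries, the 39 genes stood at 0.286, 0.238 and 0.03 in the 8-week libraries and at -0.453, 0.268 and -0.067 in the 11-week libraries. So 11-week replicate 2 stood with the 8-week libraries on this measure.

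**Figure D3:**
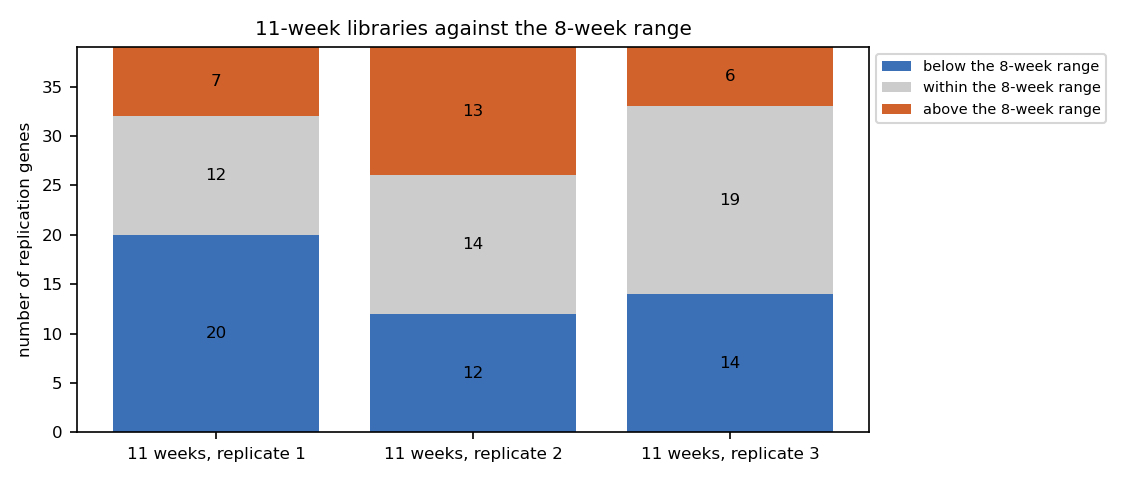
Number of the 39 genes that lie below, within or above the range of the 3 8-week libraries, for each 11-week library. The bar of replicate 1 has 20 genes below that range, that of replicate 2 has 12 below and 13 above, and that of replicate 3 has 14 below.

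Related gene lists were read from the same fit, and none of their members passed an adjusted p of 0.05. Among 29 other replication factors 18 had a negative fold change (47.2% of all genes) and 4 were lower without overlap (5.12% of all genes), with a median log2 fold change of -0.129. That median ran from -0.25 without 11-week replicate 1 to -0.071 without 8-week replicate 1. Timeless, a replication fork protein named after its values were seen, was the 1 factor higher without overlap (6.81% of all genes), at 204 and 367 normalized counts (means, n = 3; limma adjusted p = 0.704). Mcmbp, which binds the Mcm proteins, was at 2615 and 1723 normalized counts (means, n = 3 per age; limma adjusted p = 0.564). Dbf4 and Cdc7, the regulatory and the catalytic subunit of the kinase that fires origins, were at 805 and 219 at 8 weeks and at 458 and 88.9 at 11 weeks (means, n = 3; limma adjusted p = 0.634 and 0.658). For Mcmbp, Dbf4 and Cdc7 the ages did not overlap.

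Among 28 other S phase genes under E2F control 19 had a negative fold change (47.2% of all genes), 4 were lower without overlap (5.12%) and 1 higher (6.81%), with a median log2 fold change of -0.222. That median was -0.056 without 8-week replicate 1, -0.387 and -0.388 without 8-week replicates 2 and 3, and -0.381 without 11-week replicate 2. Dtl, which marks Cdt1 for destruction in S phase, was at 595 and 315 normalized counts (means, n = 3; limma adjusted p = 0.616) and Atad2 at 4032 and 2755 (limma adjusted p = 0.635). Melk, a cell cycle kinase, was higher, at 143 and 328 (limma adjusted p = 0.616).

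G2 and mitosis genes, which act after replication, had a negative fold change in 27 of 30 (90%, against 47.2% of all genes), and 4 were lower without overlap (5.12% of all genes) and none higher, with a median log2 fold change of -0.346. Kif23, a motor needed for cytokinesis, was at 1825 and 1043 normalized counts, the checkpoint gene Bub1b at 942 and 538, and the mitotic kinase gene Aurka at 460 and 245 (means, n = 3; limma adjusted p = 0.481, 0.613 and 0.658). That median was -0.174 without 11-week replicate 1 and -0.596 without 11-week replicate 2. By library the mitosis genes stood at 0.484, -0.074 and 0.186 at 8 weeks and at -0.557, 0.161 and -0.232 at 11 weeks, with replicate 1 lowest and replicate 2 highest of the 11-week libraries, the same order as the replication genes.

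**Figure D4:**
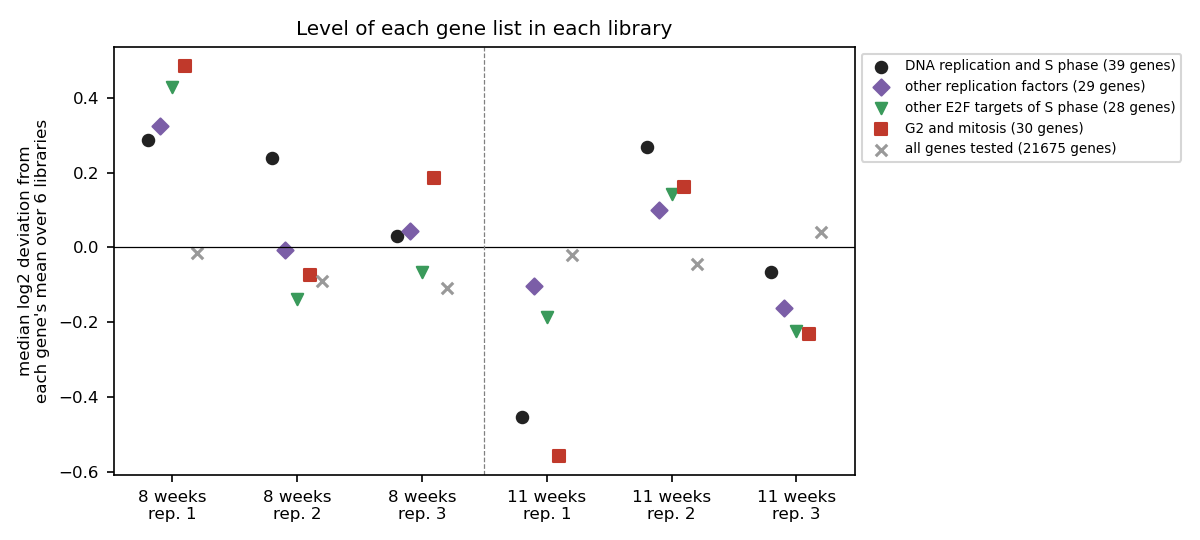
Median log2 deviation of each list from its genes' means over the 6 libraries, by library, for the 39 genes, 2 related lists, mitosis genes and all genes tested. In 11-week replicate 1 the replication genes (-0.453) and mitosis genes (-0.557) are lowest, while all genes tested lie between -0.11 and 0.04 throughout.

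A list of G1 genes held cyclins and kinases and also Cdc25a, E2f2, E2f3 and Myc. It gave a median log2 fold change of 0.15, with 7 of 10 higher, and -0.135 without 8-week replicate 3. Cdk6, a partner of D-type cyclins, was above the 8-week range in all 3 later libraries, at 1825 and 2966 normalized counts (means, n = 3; limma adjusted p = 0.521), while Ccnd3, which encodes cyclin D3, was at 865 and 462 with overlap (limma adjusted p = 0.644) and the phosphatase gene Cdc25a at 387 and 213 (limma adjusted p = 0.794). Of 14 tested brakes on S phase entry 7 were lower and 7 higher. The antiproliferative gene Btg2 and the pocket protein gene Rbl2 were below the 8-week range, at 12660 and 3084 normalized counts at 8 weeks and at 9963 and 2192 at 11 weeks, and Cdkn1b, which encodes the inhibitor p27, was at 1102 and 655 with overlap (means, n = 3; limma adjusted p = 0.643, 0.643 and 0.681). Named after their values were seen, 3 other brakes were above the 8-week range: Cdkn1a, which encodes the inhibitor p21, at 14300 and 16970 normalized counts, Gmnn, which encodes the Cdt1 inhibitor geminin, at 307 and 469, and E2f5, a repressive E2F gene, at 270 and 483 (means, n = 3; limma adjusted p = 0.759, 0.775 and 0.803). The 11-week mean of E2f5 rests on replicate 2, at 875. Replicates 1 and 3 were at 285 and 288.2, close above the 8-week values of 280, 263.2 and 268.2. The shares of all genes were 5.12% lower and 6.81% higher without overlap. Enzymes that handle nucleotides outside S phase control showed no separation. Rrm2b, the reductase subunit of resting cells, was at 1366 and 928, the mitochondrial kinase gene Dguok at 223 and 328, and Tk2 at 408 and 346 (means, n = 3, limma adjusted p = 0.772, 0.809 and 0.829).

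Markers of the sorted cells and of other cells were read beside these values. Macrophage markers, 6 of 11 with a positive fold change, summed to 720054.2 to 939684.7 normalized counts at 8 weeks and to 746719.3 to 851304.4 at 11 weeks: Lyz2 was at 487600 and 487900 normalized counts and Csf1r at 68660 and 57050 (means, n = 3; limma adjusted p = 0.972 and 0.609). The sort antigens were present in every library, among them Ptprc, which encodes CD45, between 24310.2 and 37120.6, and Cd14 between 19463.2 and 38151. Ptprc was lower and Cd14 higher at 11 weeks without overlap (limma adjusted p = 0.434 and 0.198). The class II genes H2-Ab1, H2-Aa and H2-Eb1 were at 79300, 120400 and 915 at 11 weeks and at 141400, 173900 and 1356 at 8 weeks (means, n = 3; limma adjusted p = 0.0127, 0.442 and 0.704).

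Mammary epithelial markers, whose cells carry the oncogene and can divide, were mostly higher at 11 weeks. Of 13 markers 11 had a positive fold change, and their summed level was 8076.5 to 11888.2 normalized counts at 8 weeks and 24450.2 to 46605.7 at 11 weeks, led by the milk genes Csn3 (limma adjusted p = 0.000888) and Csn2. That sum was highest in 11-week replicate 1, the library with the lowest replication genes. As the median log2 deviation, the markers stood at 1.314, -0.12 and 1.899 in 11-week replicates 1 to 3, so replicate 3 was highest. Fibroblast markers (6 of 7 higher) summed to 958.3 to 1626.4 and 1337.6 to 3273.7, led by Col3a1 and Col1a1, and endothelial markers (4 of 7 higher), led by Pecam1 and Cdh5, to 419.8 to 543.1 and 681.5 to 1244.4. Neutrophil markers (5 of 6 tested higher), led by S100a9 and Ltf, summed to 500.5 to 1320.3 and 3374.4 to 4051.4, with Ly6g at 0 to 0.9. T cell markers (6 of 9 higher) summed to 3966.3 to 4932.6 and 2582 to 3981, most of it Cd4 and Cd2, which some myeloid cells also carry, while the defining Cd3e was higher without overlap, at 16, 117.8 and 5.1 at 8 weeks and at 170.1, 345.8 and 177.6 at 11 weeks (limma adjusted p = 0.389), opposite to the sum. Trac, the T cell receptor alpha constant gene, was also higher without overlap, at 9.17 and 53.4 (means, n = 3; limma adjusted p = 0.613). B cell markers (5 of 7 higher), led by Cd79b and Ms4a1, summed to 26.5 to 323.7 and 13.1 to 574.7. NK cell markers (4 of 5 tested higher), led by Klrb1c and Gzmb, summed to 47 to 209.5 and 119 to 174, with Ncr1 between 0 and 15.2 and Klra8 at 0 in all libraries. Dendritic cell markers (4 of 8 higher), led by Cd209a and Zbtb46, summed to 5270.5 to 6758.5 and 3973.8 to 5057.1. The part of any of these cells in the replication values was not tested.

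Library depth was 38784434 to 75004877 recovered reads, and the share of mitochondrial ribosomal RNA ran from 35.2% to 51.8%. Only 3 of the 39 genes (Gins3, Fen1 and Ccne1) had under 10 reads in any library. Some others were also low in their lowest library, among them Mcm10 (25 reads), Pold1 (38) and Rfc4 (44), so counting error is not negligible there. The median SD between libraries of one age was 0.513 on the log2 scale for the 39 genes and 0.877 for all genes tested. These medians are not matched for level. A mean of at least 100 in either age was reached by 36 of the 39 genes and by 11338 of the 21675 tested.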

How the data were processed

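RNA of sorted macrophages was measured in 6 libraries made with Nugen Ovation plus Nextera from under 100 ng of RNA, per the labels' protocols. STAR 2.4, DESeq2 1.6 and GRCm38 appear in the submitters' processing notes without a role, and the counter and annotation are not stated in those sources. The deposited signal values are reads per gene over a size factor for each library, to 1 decimal. Whole reads were recovered for at least 99.908% of nonzero values within 0.05. The authors' deposited comparison holds log2 fold changes, the same as linear ratios, and p-values before and after adjustment.

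limma 3.58.1 (trend, robust) was fitted on log2(value + 1) for 21675 genes with a mean of at least 1 in either age, with age as the only term and Benjamini-Hochberg adjustment at 0.05. Alternatives were edgeR 4.0.16, DESeq2 1.42.0, scaling, filter, pseudocount, a replicate block and leaving out each library. Counts without overlap were recomputed per left-out library after seeing the data. The steps were tested on simulated data. Members and lists were chosen with earlier results of these data known. Named genes were all members, the 3 with the smallest p of each pathway list, the 2 highest of each cell marker list and the sort antigens; defining markers (Cd3e, Trac, Ncr1, Klra8, Ly6g) and the genes Timeless, Cdkn1a, Gmnn and E2f5 were added after their values were seen, and 1 further marker is not reported here. Spans of exons came from GENCODE M21 (GRCm38), and 14 members share exon bases with another gene. R 4.3.3 and Python 3.11.15 were used.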

Additional observations from a re-analysis of the deposited data

How the results depend on the processing

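Members called stayed at 0 in every alternative except DESeq2 (1, Pola1). Members lower numbered 22 to 30 and their median log2 fold change was -0.388 to -0.073 over the left-out libraries, and the members below without overlap numbered 8 to 12 (20.5% to 30.8% of members, against 8.89% to 9.82% of all genes). Genes called over the whole table, 11 (8 higher and 3 lower), were 418 by DESeq2, 5 with a pseudocount of 10, 4 (all higher) with scaling to library totals, 45 with the replicate block and 3 to 16 without 1 library (3 without 8-week replicate 1, 4 without 11-week replicate 1). The split into higher and lower was 8 and 3 by limma, 13 and 1 by edgeR and 265 and 153 by DESeq2. The labels do not say whether the replicate numbers pair the samples. Deviations of same-numbered libraries correlated at -0.023, -0.009 and -0.014, and those of other pairs at -0.029 to 0.046. The block called no member. The median of the brakes list was -0.294 with a mean of at least 100, and that of the G1 list ran from -0.135 to 0.32 without 1 library.

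Direction turned in 19 of the 39 members under some alternative, none of them called, and held in 20 (17 lower and 3 higher). By edgeR and DESeq2 the log2 fold changes of Gins2 were 0.036 and 0.047 and those of Mcm7 0.068 and 0.077. With scaling to library totals Mcm3, Rpa3 and Rrm2 were at -0.041, -0.069 and -0.045. Without 1 library the values ran from -1.73 to 0.756 for Ccne1, -0.025 to 0.572 for Ccne2, -0.073 to 0.631 for Cdc6, -0.609 to 0.022 for Cdt1, -0.181 to 0.319 for Gins2, -0.009 to 1.34 for Gins3, -0.315 to 0.256 for Gins4, -0.388 to 1.596 for Mcm10, -0.079 to 0.138 for Mcm3 and -0.374 to 0.497 for Mcm7. They ran from -0.601 to 0.268 for Orc6, -0.22 to 0.127 for Pcna, -0.031 to 1.31 for Pold1, -0.09 to 0.472 for Prim1, -0.996 to 0.082 for Prim2, -0.102 to 0.329 for Rfc1, -0.058 to 0.72 for Rpa2, -0.264 to 0.23 for Rpa3 and -0.209 to 0.345 for Rrm2. Without turning, Gins1 ran from -1.67 to -0.228, Mcm4 from -0.718 to -0.10, Pole from -1.15 to -0.018, Rfc2 from -1.14 to -0.054, Rfc4 from -1.24 to -0.096 and Rfc5 from -0.967 to -0.318. The cause was not tested. The filter at a mean of 100 left 36 members to test.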
